A study of Mus musculus with 19 samples.

Results

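The genes described here encode enzymes of mitochondrial fatty acid oxidation: Cpt1a, Cpt2, Acadvl, Acadl, Acadm, Acads, Hadha, Hadhb, Acaa2 and Etfa. They are 10 of the 19938 genes measured in mouse CD8 T lymphocytes on 19 Affymetrix arrays, and they were chosen by name, each read from a probe set annotated to that gene alone. Values are log2 signals as deposited, so a difference of 1 is a doubling of the signal. All 10 genes had a mean above background in each group, where background is a log2 signal of 7.30, the 95th percentile of 1194 olfactory and vomeronasal receptor genes. Levels were tested between groups for the same gene only. Where courses of different genes are set side by side, this is description, without a test between genes.

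Of the arrays, 16 came from TCRP1A cells, CD8 T cells of mice that carry a transgenic T-cell receptor, are Rag-1-/- and have the B10.D2 background. Naive peripheral cells (n = 4) had not been activated. Control effector cells had been activated with their antigen for 72 h (n = 4), and Stat5ca effector cells (n = 2) were activated for the same time, transduced with an active form of Stat5 and labelled GFP+. Control cells after transfer (n = 2) had been activated for 72 h, injected into congenic hosts and recovered from spleen and lymph nodes, by the labels on days 18 and 120. Stat5ca cells after transfer (n = 4) were recovered on day 20, although the series description puts recovery of both groups later than day 20. The other 3 arrays held cells of T-BetKO genotype carrying Stat5ca, recovered on days 14, 14 and 54 (n = 3). Their labels give the strain C57BL/6 beside a B10.D2 background and a second labelling protocol, and the series description says that they were stimulated through CD3 and CD28, not by antigen. Genotype, strain, stimulus, labelling and day cannot be told apart in comparisons with them. The labels name no transduction for control cells, so that Stat5ca, the transduction and, at 72 h, the GFP label cannot be told apart. Whether arrays of 1 group came from different animals or cultures is not stated. Xist, a gene expressed in female cells, was high on some arrays and low on others of 1 group in several groups (values below). Control effector, Stat5ca effector, control cells after transfer and T-BetKO cells thus each came from more than 1 animal. Which arrays are independent remains unknown, so that p-values reflect only how far these arrays differ, which may be technical.

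Mitochondrial beta-oxidation shortens fatty acids step by step and passes the electrons released to the respiratory chain. Cpt1a and Cpt2 carry long-chain fatty acids into the mitochondrion as carnitine esters, and Cpt1a sets the pace of entry. Acyl-CoA dehydrogenases open each round, with Acadvl, Acadl, Acadm and Acads taking very long, long, medium and short chains in turn. Hadha and Hadhb are the alpha and beta subunits of the trifunctional protein, which runs the next steps on long chains. Acaa2 is a thiolase of the last step, and Etfa is a subunit of the flavoprotein that takes electrons from the dehydrogenases. In CD8 T cells this pathway is best known from work on memory cells.

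Checks of the labels bear on every comparison. Stat5a signal had a mean of 12.06 in Stat5ca effector cells against 10.56 in control effector cells, and 11.54 to 11.81 in Stat5ca cells after transfer against 10.03 and 10.46 in controls. In T-BetKO Stat5ca cells Stat5a was 10.86 to 11.06, and Tbx21, the gene of T-bet, was 8.18 to 8.34 against 11.77 to 11.97 in Stat5ca cells after transfer. The 10 measured CD8 T-cell markers were above background in every group, with array means of 11.67 to 12.66. Macrophage and monocyte markers (19 of 20 measured) differed widely. Their array means were 7.93, 11.83, 8.84 and 11.69 on naive arrays 33 to 36, 8.10 to 8.89 in control effector cells, 7.04 and 7.12 in Stat5ca effector cells, 12.35 and 12.52 in control cells after transfer, 9.71 to 10.62 in Stat5ca cells after transfer, and 12.42, 12.33 and 10.75 on T-BetKO arrays 39 to 41. All 19 were above background in naive cells and in the 3 groups after transfer, and 14 were in control effector cells, where Adgre1, Adgre4, Mrc1, Cd163 and Slc40a1 were not. In Stat5ca effector cells 5 were above it, and Lyz2, Csf1r and C1qb were among those that were not. Oxidation genes are active in many cell types, and in bulk RNA fewer cells of a type cannot be told apart from less RNA per cell. Xist, expressed from the inactive X chromosome of female cells, was also mixed within groups. It was 6.18 and 6.35 on control effector arrays 1 and 4 against 12.92 and 12.84 on arrays 2 and 3. All naive arrays were high (12.65 to 12.82), and Stat5ca effector cells had 5.97 and 12.52. Control cells after transfer had 12.22 on day 18 and 6.45 on day 120, so that sex and day cannot be told apart there. Stat5ca cells after transfer had 10.09 to 12.73, and T-BetKO arrays 39 to 41 had 12.25, 12.26 and 6.48. Of 7 measured B-cell markers 2 to 4 were above background in each group, and Cd79a, Ms4a1 and Pax5 in none. Of 5 fat-cell markers 2 or 3 were, and Adipoq and Lep in none. Of 4 measured erythroid markers 3 or 4 were, with array means of 7.40 to 11.17, and Cd4 ran from 7.03 in control effector cells to 9.53 in control cells after transfer.

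Upstream sequence is shown for 5 of the genes, to place short letter matches beside the Stat5 comparisons. RefSeq windows (GRCm38.p6, 250 bases before to 50 after the gene start) were searched on both strands for 9 of the 10 genes, Acaa2 apart. Hadha and Hadhb start 273 bases apart on opposite strands of chromosome 5 and share the stretch between them. TTCNNNGAA, the letters of a Stat5 element, occurred in the windows of Hadha, Hadhb and Cpt2 and in 8.30% of all 32851 windows. For Hadha and Hadhb it was 1 stretch, 125 bases before the Hadhb start and 156 before that of Hadha. AGGTCA, a nuclear receptor hexamer, occurred in the windows of Acadvl, Cpt1a and Acadm and in 16.3% of all windows. The longer letters of a PPAR element (DR1, a direct repeat of AGGTCA with a single base between), an ERR element (TCAAGGTCA) and a stricter Stat5 element (TTCCNGGAA, contained in the first) were in 0 of the 9 windows and in 0.04%, 0.42% and 1.15% of all windows. A match describes letters in a window and not a binding site. In the lines below the match is in capitals, and each runs 5' to 3' along the strand named, ending at the base before the start.
Hadhb, chr5:30155003-30155252, plus strand, shared with Hadha: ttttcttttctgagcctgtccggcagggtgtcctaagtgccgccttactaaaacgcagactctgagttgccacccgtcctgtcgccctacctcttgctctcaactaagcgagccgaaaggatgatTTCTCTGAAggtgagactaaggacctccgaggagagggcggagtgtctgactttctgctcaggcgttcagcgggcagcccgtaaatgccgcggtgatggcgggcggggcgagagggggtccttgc
Cpt2, chr4:107923590-107923839, minus strand: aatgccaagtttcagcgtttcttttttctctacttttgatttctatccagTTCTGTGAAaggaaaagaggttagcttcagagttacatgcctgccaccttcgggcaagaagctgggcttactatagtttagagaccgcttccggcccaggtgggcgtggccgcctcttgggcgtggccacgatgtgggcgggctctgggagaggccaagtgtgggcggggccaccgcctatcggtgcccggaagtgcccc
Acadvl, chr11:70015429-70015678, minus strand: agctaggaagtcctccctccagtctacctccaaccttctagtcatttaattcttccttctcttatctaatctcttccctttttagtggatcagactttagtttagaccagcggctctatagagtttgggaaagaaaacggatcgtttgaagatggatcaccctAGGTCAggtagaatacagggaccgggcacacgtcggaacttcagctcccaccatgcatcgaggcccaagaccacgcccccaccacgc
Cpt1a, chr19:3323051-3323300, plus strand: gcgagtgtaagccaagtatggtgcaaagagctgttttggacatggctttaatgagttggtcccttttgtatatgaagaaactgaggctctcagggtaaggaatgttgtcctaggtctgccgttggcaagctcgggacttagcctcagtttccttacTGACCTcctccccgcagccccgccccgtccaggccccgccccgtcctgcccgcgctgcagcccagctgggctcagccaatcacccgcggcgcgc

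Most of the 10 genes had their highest level at 72 h of activation. The highest group mean was in control effector cells for 7 genes and in Stat5ca effector cells for Acads, Acadvl and Cpt1a. Naive cells had the lowest mean for 7 genes, control cells after transfer for Acaa2 and Acadvl, and T-BetKO Stat5ca cells for Acadm. The distance between the highest and lowest of the 6 group means was 1.27 for Acadl, 1.13 for Acaa2 and 1.05 for Acads, and 0.31 for Hadhb, the smallest. Its median over the 10 genes was 0.72, against 0.47 over all genes. Differences below are called at an adjusted p under 0.05 from limma with Benjamini-Hochberg adjustment over all 19938 genes. Counts at an unadjusted p under 0.05, also from limma, have no share of all genes beside them, because it was not computed. The shares printed near them are for adjusted p. Over the 10 genes and 5 steps between neighbours in the order of groups, 4 of 50 steps were called. Neighbours were picked as adjacent means, which keeps this count low by construction. A matching count over all genes was not made. Acads, for instance, had 8 of its 15 pairs of groups called but no step. Over the 15 pairs, 3.40% to 46.8% of all genes were called.

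**Figure D1:**
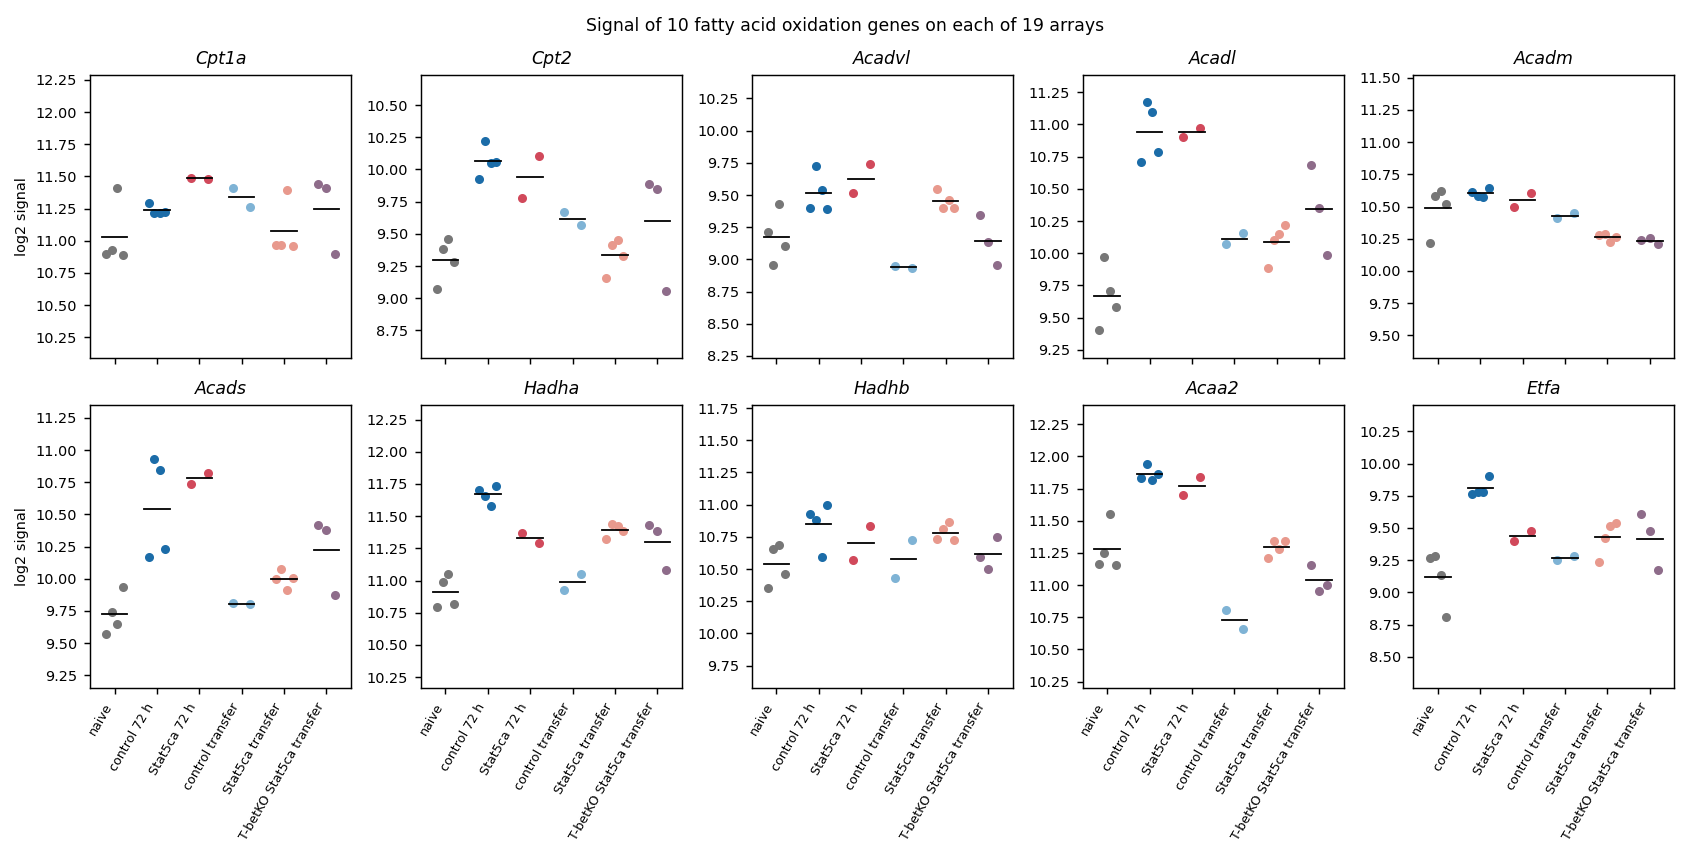
Log2 signal (vertical axis, each panel spanning the same range of log2 units) of each of the 10 genes on each of the 19 arrays, by group; points are arrays and black lines are group means. Acadl and Acaa2 separate the 72 h groups from the others, while Hadhb has the smallest span of group means (0.31); on T-BetKO array 41, the last point of the group, Cpt2 was 9.05 against 9.89 and 9.85 on the other 2 arrays.

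The carnitine shuttle genes followed different courses. Cpt1a was 10.90, 10.93, 11.41 and 10.89 in naive cells and 11.30, 11.21, 11.22 and 11.22 in control effector cells. It was 11.49 and 11.48 in Stat5ca effector cells, 11.41 and 11.26 in control cells after transfer, and 10.97, 10.97, 11.39 and 10.96 in Stat5ca cells after transfer. One array stood above the other 3 both in naive cells and in Stat5ca cells after transfer. Of the 15 pairs of groups, only Stat5ca effector cells against naive cells were called for Cpt1a, with a difference of 0.45 ± 0.15 (SE, adjusted p = 0.0297), in a pair in which 28.6% of all genes were called. No step between neighbours in its order was called. The order ran from Stat5ca effector cells through control cells after transfer, T-BetKO cells, control effector cells and Stat5ca cells after transfer to naive cells.

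Cpt2, the inner-membrane partner, had a clearer peak. Its signal was 9.07, 9.39, 9.46 and 9.28 in naive cells and 9.92, 10.22, 10.05 and 10.06 in control effector cells, with no overlap. It was 9.78 and 10.10 in Stat5ca effector cells, 9.67 and 9.57 in control cells after transfer, and 9.16, 9.41, 9.45 and 9.33 in Stat5ca cells after transfer. After transfer the Stat5ca arrays lay within the naive range and the control arrays above it. Of its 15 pairs 6 were called, and none between neighbours.

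Acadl, the long-chain dehydrogenase, had the widest range of the 4 dehydrogenases. Naive arrays read 9.40, 9.97, 9.71 and 9.59, and control effector arrays 10.71, 11.17, 11.10 and 10.78. Both Stat5ca effector arrays (10.90 and 10.97) fell inside the control effector range. After transfer the signal was 10.07 and 10.16 in control cells and 9.88, 10.10, 10.15 and 10.22 in Stat5ca cells, above the naive mean of 9.67 in every array. Of its steps, Stat5ca effector over T-BetKO cells (0.60, adjusted p = 0.0234) and Stat5ca cells after transfer over naive cells (0.42, adjusted p = 0.0212) were called. In these pairs 30.9% and 28.6% of all genes were called.

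Acads, the short-chain dehydrogenase, was 9.57, 9.74, 9.65 and 9.94 in naive cells. In control effector cells it was 10.17, 10.93, 10.85 and 10.23, with arrays 1 and 4, those with low Xist, below arrays 2 and 3. Acadl showed the same split (10.71 and 10.78 against 11.17 and 11.10). Macrophage markers also differed between these pairs of arrays (8.89 and 8.83 against 8.10 and 8.11), and the part of sex or of other cells in the split was not tested. In Stat5ca effector cells Acads was 10.74 with low Xist (5.97) and 10.82 with high Xist (12.52). After transfer it was 9.81 and 9.80 in control cells and 10.00, 10.08, 9.92 and 10.01 in Stat5ca cells, which did not overlap.

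Acadvl, the very-long-chain enzyme, was 9.21, 8.96, 9.43 and 9.10 in naive cells and 9.40, 9.73, 9.54 and 9.39 in control effector cells, overlapping. It was 9.52 and 9.74 in Stat5ca effector cells. The lowest levels were those of control cells after transfer, 8.95 and 8.93, below all 4 Stat5ca arrays after transfer at 9.55, 9.40, 9.46 and 9.40. In T-BetKO cells it was 9.34, 9.13 and 8.96. Acadm, the medium-chain enzyme, moved little, with a highest group mean of 10.60 ± 0.03 (SD, n = 4) in control effector cells and a lowest of 10.23 ± 0.02 (SD, n = 3) in T-BetKO cells. Its naive arrays (10.22, 10.59, 10.62 and 10.52) overlapped all other groups.

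The trifunctional subunits shared an order of group means but differed in size. For Hadhb no step between neighbours in this order was called, and 1 of its 15 pairs of groups was. Hadha was 10.80, 10.99, 11.05 and 10.82 in naive cells, 11.71, 11.66, 11.58 and 11.73 in control effector cells, and 11.37 and 11.29 in Stat5ca effector cells. It was 10.93 and 11.05 in control cells after transfer and 11.32, 11.44, 11.42 and 11.38 in Stat5ca cells after transfer, and 11.43, 11.39 and 11.08 in T-BetKO cells. Control effector arrays were thus above all others. Of control cells after transfer, array 30 (10.93) lay within the naive range and array 32 (11.05) level with the highest naive array (11.05). The step from control effector cells to Stat5ca cells after transfer was called (0.28, adjusted p = 0.00791), as were 29.1% of all genes. Hadhb ran from 10.54 ± 0.16 (SD, n = 4) in naive cells to 10.85 ± 0.18 (SD, n = 4) in control effector cells, and in every other group its range overlapped that of naive or control effector cells. It alone had 2 probe sets. The dimmer one gave 9.96 ± 0.16 and 10.29 ± 0.18 in the same groups, and averaging both changed no call of the 10 genes. Positions of probe sets were not available, so whether the brighter one, used here, lies in the Hadhb gene was not checked.

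Acaa2, the thiolase, was 11.16, 11.25, 11.56 and 11.15 in naive cells and 11.83, 11.94, 11.82 and 11.86 in control effector cells. It was 11.70 and 11.84 in Stat5ca effector cells, 10.81 and 10.66 in control cells after transfer, 11.21, 11.34, 11.28 and 11.34 in Stat5ca cells after transfer and 10.95 to 11.16 in T-BetKO cells. Control cells after transfer were below every other array. The step from Stat5ca effector cells to Stat5ca cells after transfer was called (0.48, adjusted p = 0.00433), as were 21.3% of all genes. Etfa, the electron acceptor subunit, was 9.27, 9.29, 9.13 and 8.81 in naive cells, 9.77, 9.78, 9.78 and 9.91 in control effector cells and 9.40 and 9.48 in Stat5ca effector cells. It was 9.25 and 9.28 in control cells after transfer and 9.23, 9.43, 9.52 and 9.54 in Stat5ca cells after transfer, and 9.61, 9.47 and 9.17 in T-BetKO cells, so that control effector arrays were above all of these.

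Control effector cells at 72 h were compared with naive cells to ask what antigen activation changed. Of the 10 genes 8 rose and 0 fell, where 22.0% of all genes were called higher and 24.9% lower (46.8% in either direction). Acadl rose most, by 1.27 ± 0.13 (SE, 2.42-fold, adjusted p = 1.37e-06). Acads rose by 0.82 ± 0.15, Cpt2 by 0.76 ± 0.10, Hadha by 0.75 ± 0.07, Etfa by 0.69 ± 0.10 and Acaa2 by 0.58 ± 0.09, each without overlap between groups. These are 6 genes without overlap, against 36.2% of all genes. The median change was 0.63 over the 10 genes and −0.09 over all genes. Acadvl (0.34 ± 0.10, adjusted p = 0.0136) and Hadhb (0.31 ± 0.11, adjusted p = 0.0264) rose less, and overlapped naive cells. Under quantile normalization Acadvl was at 0.14 (adjusted p = 0.288) and Hadhb at 0.13 (adjusted p = 0.313). Macrophage markers fell in 11 of 19 cases (median −2.02) and Cd4 fell by 1.05. Without naive arrays 34 and 36, those with high macrophage markers, Acadvl was at 0.19 (adjusted p = 0.162) and Hadhb at 0.33 (adjusted p = 0.0595), while with these markers as a covariate Acadvl was at 0.20 (adjusted p = 0.107). The call of Hadhb was also lost without naive array 33 or 36 or control effector array 1, 2 or 4 (0.25 to 0.30). Cpt1a was not called at 0.21 (95% interval −0.05 to 0.46, adjusted p = 0.163), and without naive array 35 it was at 0.33 (adjusted p = 0.0115). Acadm was not called at 0.12 (−0.05 to 0.28).

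Control cells after transfer were compared with control effector cells at 72 h. Here 7 of the 10 genes fell and 0 rose, where 24.4% of all genes were called lower and 13.1% higher (37.5% in either direction). Acaa2 fell by 1.13 ± 0.11 (2.19-fold lower, adjusted p = 1.12e-06), Acadl by 0.83 ± 0.15, Acads by 0.74 ± 0.18 and Hadha by 0.68 ± 0.09. Acadvl fell by 0.57 ± 0.12, Etfa by 0.54 ± 0.12 and Cpt2 by 0.44 ± 0.13. The median change was −0.56, against −0.04 over all genes, and 8 of the 10 did not overlap, against 52.1% of all genes. Cpt1a was at 0.10 (95% interval −0.21 to 0.41) and was the only gene with a positive difference. Between these groups macrophage markers rose in 16 of 19 cases (median 3.79), erythroid markers in 2 of 4 (median 1.91) and B-cell markers in 2 of 7 (median 0.13), Cd4 rose by 2.25, and CD8 T-cell markers fell in 8 of 10 (median −0.68). The part of cell makeup other than the macrophage markers in the fall of the 7 genes was not tested. With the macrophage marker level as a covariate 3 genes fell: Acaa2 by 1.02 (adjusted p = 0.000557), Hadha by 0.71 (adjusted p = 0.00288) and Acadl (adjusted p = 0.00849). Acads (−0.84, adjusted p = 0.0528), Cpt2 (−0.50, adjusted p = 0.101), Etfa (−0.37, adjusted p = 0.209) and Acadvl (−0.24, adjusted p = 0.364) were then not called. Both control arrays after transfer had high marker levels, so other cells and stage could be separated here only through arrays of other groups. The call of Cpt2 was lost without array 32 (−0.40, adjusted p = 0.0987), and Hadhb, not called at −0.27, was called without control effector array 3 (−0.36, adjusted p = 0.0316).

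Against naive cells, control cells after transfer differed in 1 of the 10 genes. Acaa2 fell by 0.55 ± 0.11 (adjusted p = 0.00373), where 9.81% of all genes were called lower, and 0 rose, where 7.94% were called higher; at an unadjusted p under 0.05, 2 were higher. Acadl was 0.45 ± 0.15 higher (adjusted p = 0.0577) and Cpt2 0.32 ± 0.13 (adjusted p = 0.0897), neither called, and neither overlapped naive cells. With Acaa2 and Acadvl (−0.24 ± 0.12), 4 of the 10 did not overlap, against 42.3% of all genes. The median change over all genes was −0.12. Macrophage markers rose in 7 of 19 cases (median 2.49), and CD8 T-cell markers fell in 9 of 10 (median −0.72). The call of Acaa2 was lost without array 32 (−0.47), of day 120 and with low Xist (6.45 against 12.22 on array 30). It was also lost with the macrophage markers as a covariate (−0.48, adjusted p = 0.0574). Without naive arrays 34 and 36, Acadl was called higher (0.56, adjusted p = 0.0185; without array 34 alone 0.55, adjusted p = 0.0151) and Acadvl lower (−0.38, adjusted p = 0.0357). Cpt1a was called higher without naive array 35 (0.43, adjusted p = 0.0257).

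**Figure D2:**
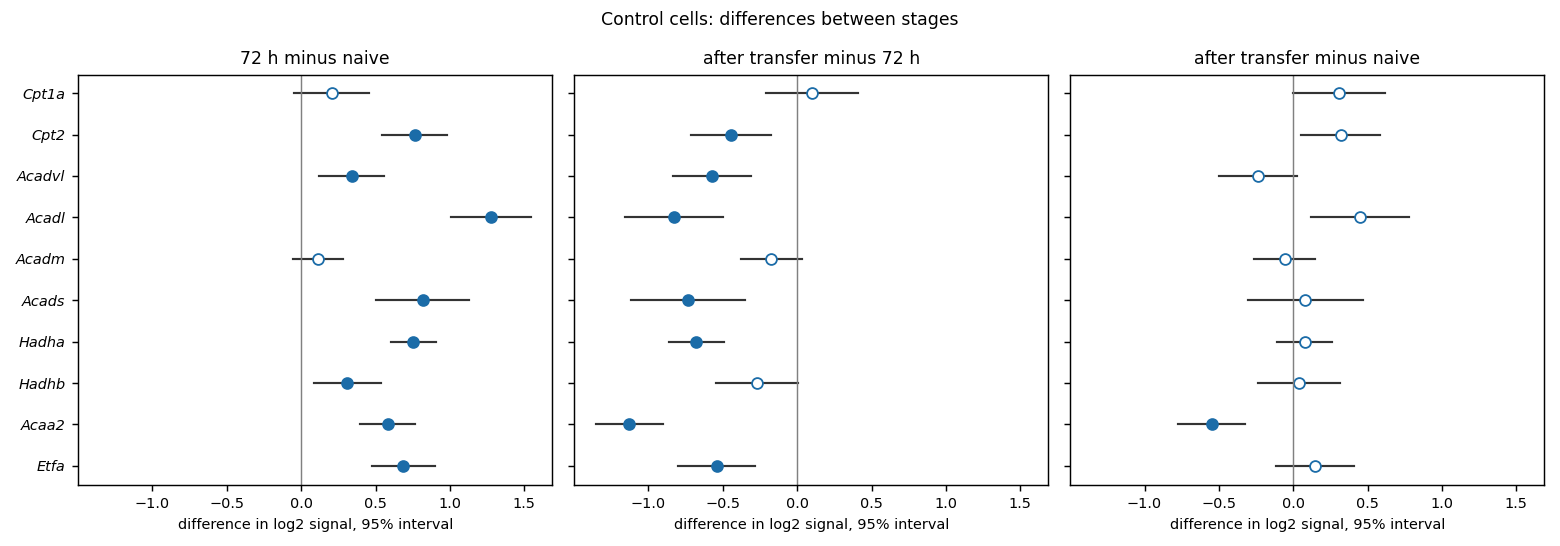
Differences in log2 signal (horizontal axis) between stages of control cells for each of the 10 genes, with 95% intervals; filled points passed an adjusted p of 0.05 from limma. Of the 10 genes 8 are filled to the right at 72 h against naive cells, 7 to the left after transfer against 72 h, and Acaa2 alone after transfer against naive cells.

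Stat5ca and control cells were compared at both stages to ask what an active Stat5 changed. At 72 h 1 of the 10 genes differed: Hadha was lower by 0.34 ± 0.09 (adjusted p = 0.0351), where 3.35% of all genes were called lower and 2.37% higher (5.72% in either direction). The Hadha arrays of both groups did not overlap, but its call was lost without any of 5 of the 6 arrays in turn, and with macrophage markers as a covariate (−0.33, adjusted p = 0.0677). Macrophage markers were called lower in 3 of 19 cases (median −1.05). Etfa was at −0.37 ± 0.12 (adjusted p = 0.0923), and with Cpt1a 3 of the 10 did not overlap, against 32.9% of all genes. At an unadjusted p under 0.05, 2 genes were lower and 0 higher. The other differences lay between −0.15 for Hadhb and 0.25 for Cpt1a, whose 95% interval ran from −0.06 to 0.56.

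After transfer 3 of the 10 genes were higher in Stat5ca cells and 0 lower, where 16.9% of all genes were called higher and 8.46% lower (25.4% in either direction). Acaa2 was higher by 0.56 ± 0.11 (1.48-fold, adjusted p = 0.00146), Acadvl by 0.51 ± 0.12 (adjusted p = 0.00685) and Hadha by 0.40 ± 0.09 (adjusted p = 0.00364), each without overlap. In all, 6 of the 10 did not overlap, against 51.0% of all genes. The median difference was 0.18, against 0.08 over all genes. Cpt2 (−0.28 ± 0.13, adjusted p = 0.120) and Acadm (−0.17 ± 0.10, adjusted p = 0.247) were lower in every Stat5ca array than in both controls but not called; quantile normalization called both (−0.37 and −0.22, adjusted p = 0.0203 and 0.0465). At an unadjusted p under 0.05, 1 gene was lower. Macrophage markers were called lower in 5 of 19 cases, with a median of −2.12, CD8 T-cell markers higher in 8 of 10 (median 0.65), and B-cell markers lower in 3 of 7 (median −0.02); Cd4 was lower by 1.23. With macrophage markers as a covariate Acaa2 (0.50) and Hadha (0.42) kept their calls and Acadvl did not (0.34, adjusted p = 0.0881). With 2 control arrays, leaving out array 32 left Acadvl at 0.50 (adjusted p = 0.0590), and leaving out array 30 left Hadha at 0.34 (adjusted p = 0.0630).

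Whether the Stat5ca difference itself changed between the stages was tested as an interaction. It was more positive after transfer for 3 of the 10 genes and more negative for 0, where 12.3% and 5.48% of all genes were called. For Hadha the difference went from −0.34 at 72 h to 0.40 after transfer, a change of 0.74 ± 0.12 (adjusted p = 0.00102). For Acaa2 it went from −0.09 to 0.56 (0.65 ± 0.15, adjusted p = 0.00724), and for Etfa from −0.37 to 0.16 (0.53 ± 0.17, adjusted p = 0.0450). The call of Etfa was lost under many alternatives, which gave 0.40 to 0.60 and adjusted p up to 0.182, among them leaving out any 1 array of control effector, Stat5ca effector or control cells after transfer, or Stat5ca array 12, 13 or 14, while those of Hadha and Acaa2 were lost only under a 2-fold minimum. Cpt1a went the other way, from 0.25 to −0.26 (−0.51 ± 0.21, adjusted p = 0.105). It was called without Stat5ca array 13 after transfer (−0.62, adjusted p = 0.0321) and under quantile normalization (−0.58, adjusted p = 0.0446). At an unadjusted p under 0.05, 4 genes were more positive and 1 was more negative, again without a matching share of all genes.

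**Figure D3:**
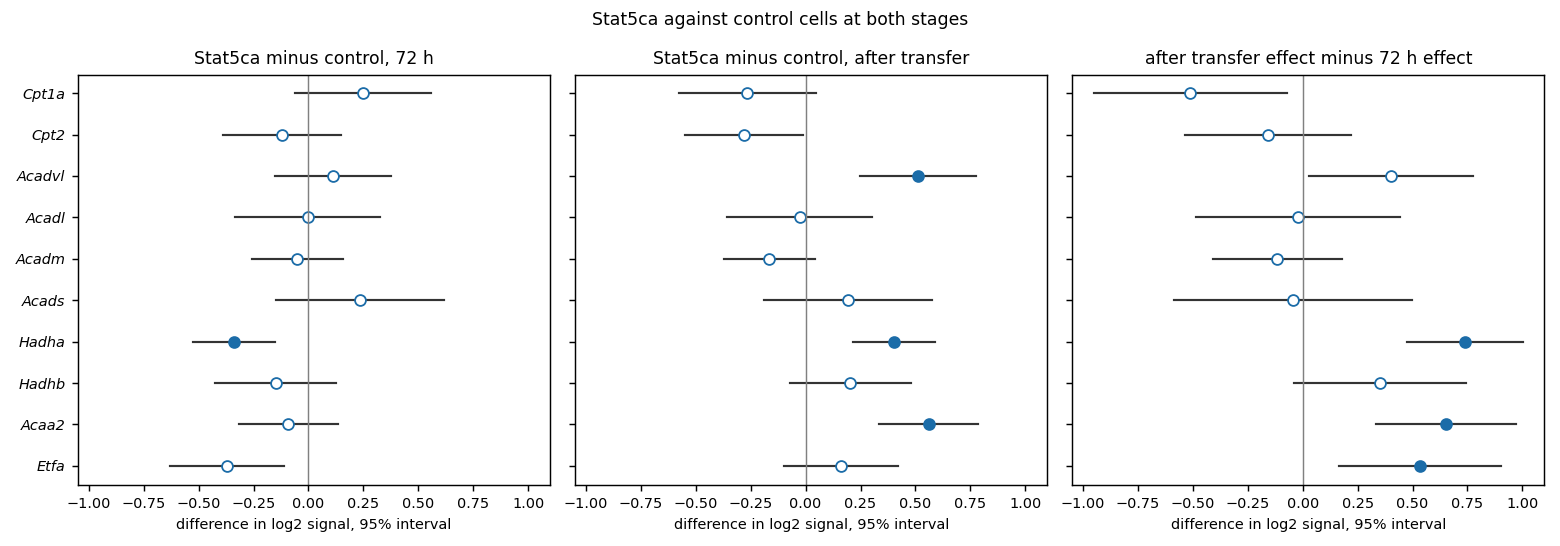
Stat5ca minus control in log2 signal (horizontal axis) at 72 h and after transfer, and the difference between both, for each of the 10 genes with 95% intervals; filled points passed an adjusted p of 0.05 from limma. Hadha is filled on the left at 72 h and on the right after transfer, and Acaa2, Hadha and Etfa are filled in the third panel.

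Within Stat5ca cells, those after transfer were lower than those at 72 h in 5 of the 10 genes and higher in 0, where 12.7% of all genes were called lower and 8.61% higher (21.3% in either direction). Acadl fell by 0.85 ± 0.15, Acads by 0.78 ± 0.18, Cpt2 by 0.60 ± 0.13, Acaa2 by 0.48 ± 0.11 and Acadm by 0.29 ± 0.10 (adjusted p = 0.0461). Hadha (0.06), Hadhb (0.08) and Etfa (−0.01) had intervals that included 0. In all 6 genes, these 5 and Cpt1a, did not overlap, against 47.0% of all genes. Cpt1a was at −0.41 ± 0.15 (adjusted p = 0.0574), and was called without array 13 (−0.52, adjusted p = 0.0120). Without Stat5ca effector array 10, the calls of Acads, Cpt2, Acaa2 and Acadm were lost and that of Acadl was left; Acadm was also lost without any 1 other array of these groups. Macrophage markers rose in 14 of 19 cases (median 3.81), CD8 T-cell markers fell in 4 of 10 (median −0.32), and with macrophage markers as a covariate Acaa2 was not called (−0.38, adjusted p = 0.119).

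Against naive cells, Stat5ca cells after transfer were higher in 3 of the 10 genes and lower in 1, where 15.8% of all genes were called higher and 12.7% lower. Hadha rose by 0.48 ± 0.07 (adjusted p = 0.000170), without overlap; Hadhb, not called at 0.24, did not overlap either, against 28.2% of all genes. Acadl rose by 0.42 ± 0.13 and Etfa by 0.31 ± 0.10, both overlapping naive cells, and Acadm fell by 0.22 ± 0.08 (adjusted p = 0.0462). Without naive array 36, 1 gene was called higher, and this was also so without Stat5ca array 13 or array 14; the call of Acadl was lost without naive array 33 too, and that of Etfa without Stat5ca array 12. Acadvl, at 0.28 (adjusted p = 0.0528), was called without naive array 35 (0.36, adjusted p = 0.00946). The call of Acadm was lost without naive array 34, 35 or 36 and without any 1 of the 4 Stat5ca arrays.

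T-BetKO Stat5ca cells were compared with Stat5ca cells after transfer. None of the 10 genes was called by limma, where 7.03% of all genes were called higher and 13.8% lower (20.8% in either direction). At an unadjusted p under 0.05, 2 were lower and 0 higher: Acadvl at −0.31 ± 0.12 (adjusted p = 0.0667) and Acaa2 at −0.26 ± 0.09 (adjusted p = 0.0597), both without overlap, against 30.4% of all genes. The 3 T-BetKO arrays were not alike. Array 41, of day 54, was below both arrays of day 14 for 8 of the 10 genes. The matching share over all genes was not computed, so this count is not a result about these genes. Cpt2 was 9.89 and 9.85 on day 14 and 9.05 on day 54, Acads 10.41, 10.38 and 9.87, Cpt1a 11.44, 11.41 and 10.90, and Acadl 10.68, 10.36 and 9.99. Array 41 also had lower macrophage markers (10.75 against 12.42 and 12.33), low Xist (6.48) and a higher RNA integrity number (RIN 8 against 7 and 6; 8 to 9 in Stat5ca cells after transfer). Between the groups, 5 of 10 CD8 T-cell markers were called lower and 1 higher (median −0.45), 2 of 19 macrophage markers higher (median 1.44) and 3 of 7 B-cell markers higher (median 0.02). The part of day, cell makeup, sex and RNA quality in the differences between these 3 arrays was not tested. Without array 41 Cpt2 was called higher (0.53, adjusted p = 0.00385), and without array 39 Acadvl was called lower (−0.41, adjusted p = 0.0405). Without arrays 39 and 40, Cpt2 was at −0.28 (adjusted p = 0.386) and Acadvl at −0.49 (adjusted p = 0.103).

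The wider pathway was described with 6 lists of related genes. Over all genes the median change was −0.09 at 72 h against naive cells, −0.04 in control cells after transfer against 72 h and 0.08 in Stat5ca against control cells after transfer. Of all genes, 22.0% were called higher and 24.9% lower in the first of these comparisons, 13.1% and 24.4% in the second, and 16.9% and 8.46% in the third. With macrophage markers as a covariate, 1267 genes were called higher and 2494 lower in control cells after transfer against 72 h (6.35% higher), and 10.8% higher and 5.53% lower in Stat5ca against control cells after transfer. For the other mitochondrial beta-oxidation genes the medians were 0.57, −0.55 and 0.15. Of 19 other mitochondrial beta-oxidation and electron transfer genes, 13 rose and 0 fell at 72 h against naive cells, among them Decr1 (1.52 ± 0.10) and Eci2 (1.12 ± 0.15), which handle double bonds, and Acat1 (0.93 ± 0.11), a thiolase. After transfer against 72 h, 13 fell and 0 rose in control cells, with Decr1 at −1.30 ± 0.12, Gcdh at −1.14 ± 0.17 and Hadh at −0.99 ± 0.15; with macrophage markers as a covariate 10 fell. In Stat5ca against control cells after transfer 5 rose and 1 fell. Hsd17b10, a short-chain dehydrogenase, rose by 0.73 ± 0.13 and Acat1 by 0.62 ± 0.13, and Ivd, of leucine breakdown, fell by 0.51 ± 0.09. With the covariate 2 rose and 1 fell.

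Enzymes of the tricarboxylic acid cycle, which burns the acetyl-CoA that beta-oxidation yields, had medians of 0.57, −0.69 and 0.29 in these 3 comparisons. At 72 h against naive cells 12 of 16 rose and 0 fell, with Fh1 at 1.37 ± 0.09 and Sdhb at 0.97 ± 0.14. After transfer against 72 h 12 fell and 0 rose in control cells, and 9 fell with macrophage markers as a covariate. In Stat5ca against control cells after transfer 8 rose and 0 fell, with Idh3a at 0.74 ± 0.14, and 7 rose and 1 fell with the covariate. Of 13 fatty acid synthesis genes, with medians of 0.43, −0.50 and 0.28, 10 rose and 1 fell at 72 h, with Scd1 at 2.91 ± 0.36 and Fads2 at 2.87 ± 0.23. In control cells after transfer 7 of them fell and 0 rose, with Scd2 at −2.47 ± 0.20. In Stat5ca against control cells after transfer 6 rose and 1 fell, with Fasn, the fatty acid synthase, at 0.70 ± 0.13. Counts of the synthesis genes with macrophage markers as a covariate are not reported here.

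In the other 3 lists genes were called in both directions. Their medians in the same order were 0.29, −0.12 and −0.11 for uptake and activation, 0.14, −0.13 and −0.16 for peroxisomal genes, and −0.07, 0.13 and 0.08 for regulators. Of 16 uptake, activation and carnitine shuttle genes, 7 rose and 1 fell at 72 h, with the thioesterase Acot7 at 1.89 ± 0.13 and the fatty acid binding protein gene Fabp5 at 1.45 ± 0.20. After transfer 5 rose and 7 fell in control cells. Among them Fabp4 (2.72 ± 0.34) and Cd36 (2.58 ± 0.71), genes of a fatty acid binding protein and an uptake receptor, rose. With macrophage markers as a covariate Fabp4 was at 1.14 (adjusted p = 0.000557) and Cd36 at −0.62 (adjusted p = 0.360). Of 15 peroxisomal genes 5 rose and 1 fell at 72 h, with Decr2 at 1.25 ± 0.12 and Abcd2 at −1.50 ± 0.57. After transfer 2 rose and 5 fell in control cells, and in Stat5ca against control cells after transfer 2 rose and 5 fell, with Scp2 at −1.27 ± 0.16. With macrophage markers as a covariate, control cells after transfer against 72 h had 2 uptake genes up and 4 down, 0 peroxisomal genes up and 2 down, and 5 regulators up and 4 down. In Stat5ca against control cells after transfer 0 peroxisomal genes then rose and 2 fell.

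Of 26 regulators and lipolysis genes, 7 rose and 8 fell at 72 h, with Tfam, a mitochondrial transcription factor, at 0.75 ± 0.15 and Rxra, a partner of PPAR receptors, at −1.29 ± 0.23. In control cells after transfer against 72 h, 7 rose and 8 fell. Aqp9, a glycerol channel, rose by 2.57 ± 0.18, Pparg by 3.56 ± 0.54 and Lipa, the lysosomal acid lipase, by 1.39 ± 0.12. In Stat5ca against control cells after transfer 5 rose and 3 fell. Aqp9 rose by 0.98 ± 0.18, from 10.62 to 11.59, and Tfam by 0.91 ± 0.18, whereas Pparg fell by 2.27 ± 0.54 and Lipa by 1.44 ± 0.12. Macrophage markers had medians of 3.79 and then −2.12 in the same comparisons. Pparg and Lipa rose and then fell, while Aqp9 rose in both. Values of these genes with the marker level as a covariate are not reported here. Bulk RNA does not tell in which cells these changes arose. In T-BetKO Stat5ca against Stat5ca cells Aqp9 fell by 2.08 ± 0.17 and Tfam by 1.02 ± 0.18, and in this comparison 1 of the 26 rose and 5 fell. Of the 19 other mitochondrial genes 0 rose and 2 fell, Hsd17b10 by 0.67 ± 0.11. Of all genes 7.03% were called higher and 13.8% lower there.

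**Figure D4:**
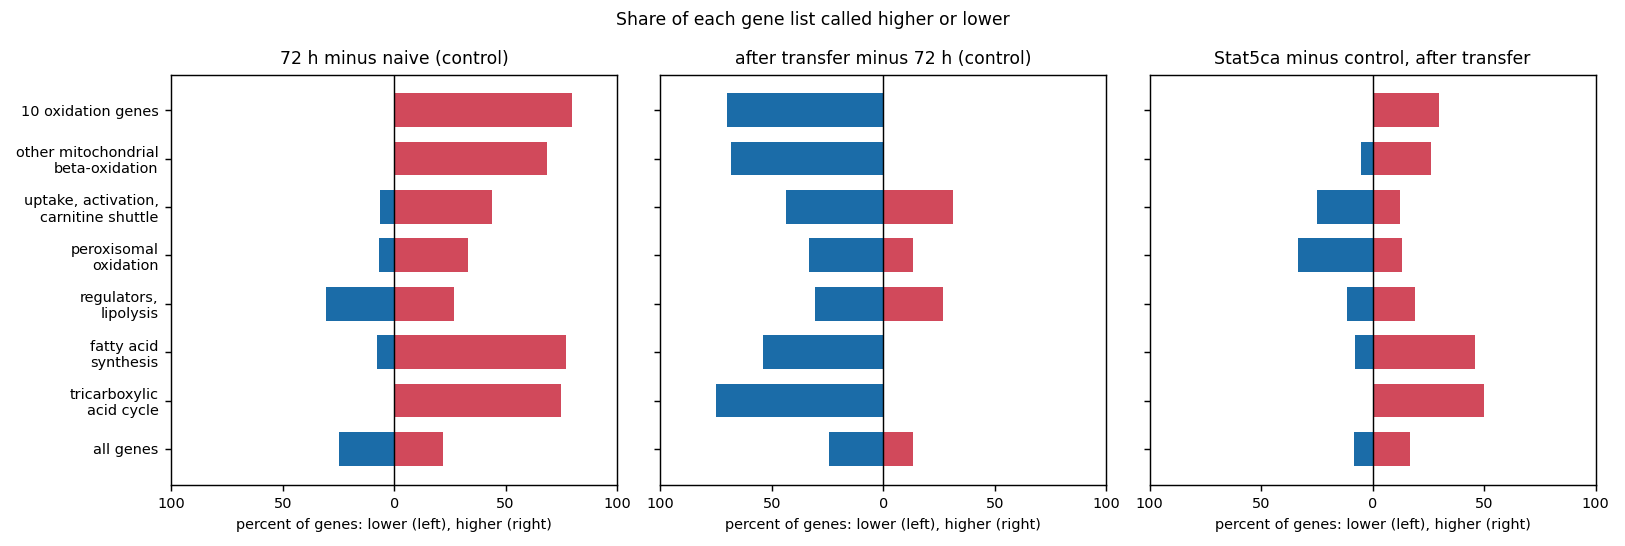
Percent of each gene list called higher (red, right) and lower (blue, left) in 3 comparisons, at an adjusted p of 0.05 from limma, with the 10 oxidation genes in the top bar and all 19938 genes in the bottom bar. The mitochondrial oxidation, tricarboxylic acid cycle and synthesis lists lean one way in each panel. All genes lean the same way as these in the second panel (13.1% higher, 24.4% lower) and the third (16.9% and 8.46%). Peroxisomal oxidation genes lean the other way in the third panel (2 up, 5 down), and the regulators list has 7 genes up and 8 down in the first.

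For the 3 genes whose group means spanned at least 1, the genes with the most similar pattern were sought among 13852 genes with a mean above background in at least 1 group, the 10 genes themselves left out, by the root-mean-square (RMS) difference of the 6 group means after each gene was centred. Mrpl39, of the mitochondrial ribosome, was nearest to Acaa2 (RMS difference 0.06), followed by Cdca4 and Gemin2 (both 0.07). Nmral1 was nearest to Acadl (0.06), followed by Naxe (0.09) and Vdac1 (0.11), the channel of the mitochondrial outer membrane. For Acads these were Eif4e3, Rtraf and Slc9a5 (0.07 to 0.08), of which Slc9a5 had means under background in naive cells (7.03), control cells after transfer (7.02) and Stat5ca cells after transfer (7.21). With 6 group means per gene and many genes searched, these are descriptions of likeness.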

How the data were processed

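RNA (0.125 µg per array) from purified CD8 T cells was measured on Affymetrix arrays. The authors deposited log2 signals for 35557 probe sets on each of 19 arrays, which were analysed without further normalization. Affymetrix Expression Console is named in the submitters' processing notes; its version, summarization and normalization are not given in the sources used. That values are log2 was read from their range, 3.13 to 14.94. The number of arrays limits the precision, and cell markers, Xist and days were mixed within groups. Of the probe sets, 21789 named 1 gene, and the brightest probe set over all arrays stood for each of 19938 genes.

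Groups came from the labels. Linear models used limma 3.58.1 under R 4.3.3 (lmFit, then eBayes with a constant prior variance, no covariates): 16 TCRP1A arrays in 1 fit for 8 comparisons, all 19 for T-BetKO cells. The threshold for a call was 0.05 after Benjamini-Hochberg adjustment over all genes of a comparison. Errors of differences are SE, of means SD. Fits were tested on simulated data of 19938 genes, with 100 genes given each size of change (0.5 or 1) and all others none. Far fewer genes were changed there than were called in the data (5.72% to 46.8% in either direction). The adjustment over all genes was therefore stricter in the simulation, and its shares need not hold for these comparisons. Over the 9 comparisons a change of 0.5 was called for 6% (interaction) to 60% (72 h against naive cells). For Stat5ca against control cells it was called for 33% at 72 h and 27% after transfer, and for control cells after transfer against naive cells for 32%. A change of 1 was called for 71% to 98%. A gene that was not called may thus have changed.

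The 10 genes and the gene lists were chosen with earlier results of these data known. The rule for other named genes took, per list and comparison, up to 4 called genes with the largest changes, the label checks Stat5a, Stat5b and Tbx21, and the 3 nearest patterns. Marker genes, and the few genes singled out beside them, are named as descriptions. Promoter searches for AGGTCA and TTCCNGGAA were added to those planned. Alternatives were a 2-fold minimum, a prior following the signal, other arrays in the fit, quantile normalization, median centring, no dim genes, averaged probe sets, array weights, RNA integrity (RIN 6 to 10), macrophage markers or sex as a covariate, and arrays left out. Tables used Python 3.11.15, pandas 2.3.3, numpy 2.4.6; figures used matplotlib 3.10.9.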

Additional observations from a re-analysis of the deposited data

Results flagged for a closer look

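Of 30 sets of 4 arrays (10 genes in 3 groups), 4 held an array far from the other 3, where chance gives about 1 in 20. Of these, 3 concerned Cpt1a: naive array 35 at 11.41 against 10.89 to 10.93, control effector array 1 at 11.30 against 11.21 to 11.22, and Stat5ca array 13 after transfer at 11.39 against 10.96 to 10.97. Array 4 of the control effector cells stood at 9.91 for Etfa, against 9.77 to 9.78. Array 13 also had the lowest Xist (10.09 against 12.67 to 12.73) and macrophage marker level (9.71 against 10.54 to 10.62) of its group, and their part in the Cpt1a value was not tested.

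The Stat5ca difference was more positive after transfer than at 72 h, by the interaction test in limma, for Hadha (0.74), Acaa2 (0.65) and Etfa (0.53). The call of Etfa was close to the threshold (adjusted p = 0.0450) and was lost under many alternatives, as given above.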

How the results depend on the processing

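Over the alternatives, 1551 of 1790 values of the 10 genes kept their direction and side of the threshold, 126 lost a call, 44 gained one, 69 values that were not called changed sign, and 0 called values did. No paired analysis was possible because array numbers are not shared between groups. Counts below are of the 10 genes alone. Shares of all genes under the alternatives are not reported here, except those printed for the macrophage covariate. Genes called higher at 72 h against naive cells numbered 8, and 1 with a 2-fold minimum; leaving out arrays gave 7 to 9, with 0 lower. For Stat5ca at 72 h, the 1 lower gene became 0 with a 2-fold minimum, only those groups, all 19 arrays, median centring or the macrophage covariate, and 2 with array weights, which gave 1 higher; leaving out arrays gave 0 to 1 lower and 0 higher. For control cells after transfer against naive cells, 0 higher became 1 without dim genes or without naive arrays 34 and 36, and 2 with the sex covariate; 1 lower became 0 with a 2-fold minimum, only those groups or the macrophage covariate, and 2 without naive arrays 34 and 36; leaving out arrays gave 0 to 1 in both directions. Against 72 h, 7 lower became 1 with a 2-fold minimum and 3 with the macrophage covariate, and 6 to 8 when arrays were left out. Cd36 and Abcd2, called higher there, were at −0.62 and −0.37 with that covariate. For Stat5ca after transfer, 3 higher became 0 with a 2-fold minimum, and 0 lower became 2 with quantile normalization and 1 with array weights or the sex covariate; leaving out arrays gave 2 to 3 higher and 0 lower. Against 72 h, 5 lower became 0 with a 2-fold minimum, and 1 to 5 when arrays were left out. Against naive cells, 3 higher became 0 with a 2-fold minimum, 1 with quantile normalization and 5 with array weights, and 1 to 4 when arrays were left out; 1 lower became 0 with a 2-fold minimum, a prior following the signal, only those groups, median centring, RIN, sex, or without naive arrays 34 and 36, and 0 to 1 when arrays were left out. For the interaction, 3 more positive became 0 with a 2-fold minimum and 2 to 3 when arrays were left out; 0 more negative became 1 with only those groups, quantile normalization or array weights, and 0 to 1 when arrays were left out. For T-BetKO cells, 0 higher became 3 with array weights and 1 with the sex covariate, and 0 lower became 1 without dim genes or with array weights; leaving out arrays gave 0 to 1 in both directions. Where 1 array remained in a group, it was taken to vary like the other groups. The cause of these changes was not tested, other than that a 2-fold minimum removes smaller changes. Groups of 2 arrays limit the comparisons that use them.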
